A study of Mus musculus with 20 samples.

Results

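Genes of 3 families of secreted signals, Wnt, FGF and BMP, with their receptors, were followed in whole-brain RNA of Katnal2-KO and WT mice. Members were all protein-coding genes of the deposited table whose mouse symbol begins with Wnt, Fzd, Fgf or Bmp and a number. Symbols that begin with Bmpr, or are Fgfr and a number, were also taken. The rule uses names and no measured value. It picked 57 of 19463 genes, namely 16 Wnt ligands, 10 Frizzled receptors, 12 secreted FGFs, 4 intracellular FGF homologous factors, 3 FGF receptors, 7 BMP ligands and 3 BMP receptors, plus Bmp1 and Bmp2k. The last pair carry the name only, since Bmp1 is a metalloprotease that trims procollagen and BMP antagonists and Bmp2k is a cytosolic kinase. A further 13 genes that fit the rule in the GENCODE M21 annotation (Wnt3a, Wnt8a, Wnt8b, Fgf4, Fgf6, Fgf8, Fgf15, Fgf20, Fgf21, Fgfr4, Bmp8a, Bmp10 and Bmp15) were not analysed here.

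Wnt ligands bind Frizzled receptors and, in the canonical branch, keep β-catenin from being destroyed, so that it reaches TCF/LEF factors on DNA. FGFs bind receptor tyrosine kinases that signal through RAS and MAP kinases, and BMPs bind pairs of type I and type II serine/threonine kinase receptors that phosphorylate SMADs. In the brain these families pattern the neural tube, and later act in synapse formation, in the blood-brain barrier, in the meninges and choroid plexus, and in the choice between astrocytes and oligodendrocytes. The FGF homologous factors Fgf11 to Fgf14 are the exception, since they stay inside the cell and bind voltage-gated sodium channels.

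The mice were on a C57BL/6J background, and 4 groups of 5 mice each (20 in all) were compared: P21 WT, P21 KO, P70 WT and P70 KO, which the labels give as ages of 3 and 10 weeks. KO mice were homozygous for a frame-shifting deletion of exon 3 of Katnal2, a member of the katanin family of microtubule-severing proteins. The line came from EUCOMM ES cells, backcrossed to C57BL/6J for more than 5 generations, with the marker cassette removed by crossing to Protamine-Flp mice and the exon removed by treating fertilized eggs with HTNC, a Cre that enters cells. The deletion was therefore present in every tissue from the start of development, and no treatment was given. Littermates of mixed genotype shared cages after weaning. Because each library came from a whole brain, fewer cells of a type and less RNA per cell cannot be told apart in any value below.

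The deposited values are read counts that the authors normalized for library size, called normalized values here, and each mouse's values summed to between 27310523 and 28423042. The spacing of low values put the depth at about 26100000 to 35600000 reads in P21 mice and 23400000 to 28400000 in P70 mice, so that estimated depth and age moved together. The estimate is rough, since only 13% to 45.4% of a library's low values were whole multiples of 1 read. Katnal2 itself was 107 ± 7.4 in P21 WT and 89 ± 8.7 in P21 KO mice (SD, n = 5), without overlap (p = 0.00794 by exact permutation, two-sided, which is the lower limit for groups of this size; limma adjusted p = 1). At P70 it was 122 ± 16.4 and 105 ± 11.8, with overlap (exact p = 0.0794). Only exon 3 is deleted, so reads from the other exons can still be counted in KO mice. These values therefore do not measure how complete the deletion was. Summed markers of neurons, at 145537 to 162687, and of astrocytes, at 101724 to 130790, were present in all 20 mice. A pituitary list was between 109 and 537 in 17 mice but 2345, 1516 and 7627 in P21 WT replicate 2, P21 KO replicate 3 and P70 KO replicate 3. The replicate 5 mice of both P70 groups stood apart, with a spread of log2 differences from their group of 0.548 in WT and 0.664 in KO, against 0.378 to 0.412 in the other P70 mice.

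**Figure D1:**
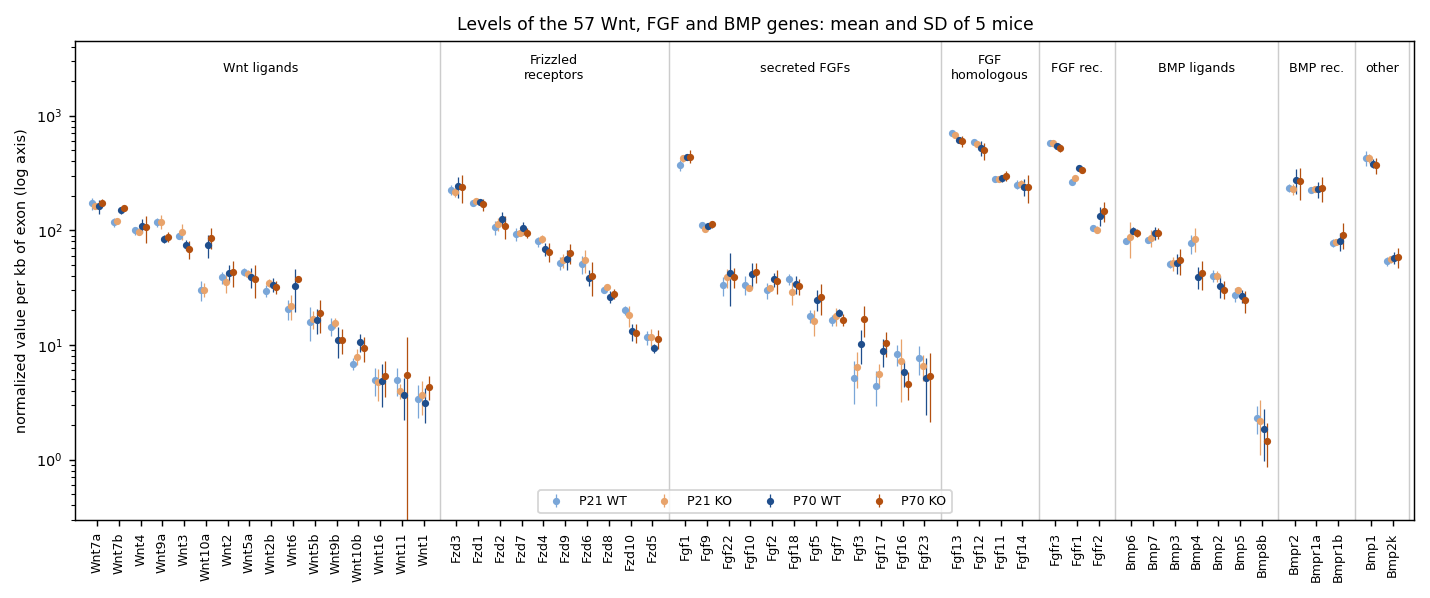
Mean normalized value per kb of exon (vertical log axis) of each of the 57 genes, ordered by role and then by level in P70 WT mice, with points for the 4 groups and bars of 1 SD over 5 mice. In P70 WT mice the highest point is Fgf13, at 618, and the lowest is Bmp8b, at 1.85.

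Levels between genes were compared as normalized values per kb of exon, and are given for P70 WT mice unless stated. The SDs are between mice, and the order of genes measured in the same mice was not tested. The highest was Fgf13, an FGF homologous factor that also binds microtubules, at 618 ± 37.2 (SD, n = 5), and the other 3 factors of that kind were between 240 and 524. Among receptors, Fgfr3, which in adult brain is mostly an astrocyte gene, was at 545 ± 29.7, ahead of Fgfr1 at 346 ± 14.8 and Fgfr2 at 134 ± 24.9. Bmpr2, the type II receptor, was at 277 ± 67.9 and the type I receptor Bmpr1a at 228 ± 35.4, a gap smaller than the spread of Bmpr2. That spread includes replicate 5, at 2828 before division by length, against 5120 to 5724 in the other P70 WT mice. The third BMP receptor, Bmpr1b, was lower, at 80.7 ± 14.5. The Frizzleds ran from Fzd3, a receptor used in axon guidance, at 242 ± 51.4, to Fzd5 at 9.38 ± 0.83, with Fzd1 next to Fzd3 at 178 ± 7.52.

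The median of the ligands was 36.3 for Wnt, 29.3 for secreted FGFs and 39.3 for BMP, against 62.2 for the Frizzleds. One secreted FGF stood far above the rest, namely Fgf1, which lacks a classical secretion signal, at 433 ± 23.1 per kb against 108 ± 3.53 for the next, Fgf9. The other 10 secreted FGFs lay between 5.12 and 42.4. The highest Wnt ligands were Wnt7a at 161 ± 23 and Wnt7b at 150 ± 9.95, a difference within their spread, and both are known as signals from neural cells to the endothelium of the blood-brain barrier. Their order turned on the gene model, since dividing by the longest transcript alone put Wnt7b first, at 216. Bmp6 (99.5 ± 6.86) and Bmp7 (94 ± 11.8) led the BMP ligands, with a gap smaller than the SD of either. Bmp1 was at 381 ± 35.1. At the lower end, Wnt1 and Bmp8b had mean values under 10 in every comparison and were left out of all fits, and Fgf16, Fgf17 and Fgf23 passed that filter in only 3, 4 and 4 of the 5 comparisons.

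The ages were compared first within WT mice. A difference is given as a log2 fold change (P70 relative to P21, on log2 of the value plus 1, which understates changes of low genes), with its standard error and a limma p adjusted by the Benjamini-Hochberg method over every gene tested, and the threshold was 0.05. Of 55 members tested, 4 rose with age (Wnt10a, Fgfr1, Wnt7b and Bmp6) and 3 fell (Bmp4, Fzd10 and Wnt9a). Among all 17630 genes 4.62% rose and 4.7% fell, so the members' shares of 7.27% and 5.45% were not far from the background (in either direction 12.7%, against 9.32%). In KO mice, which share no animals with the WT comparison, 6 of 54 members rose (Wnt10a, Fgf3, Wnt6, Fgfr2, Wnt7b and Fgfr1; 11.1% against 3.78% of all genes) and 3 fell (Bmp4, Wnt3 and Wnt9a; 5.56% against 4.53%), or 16.7% in either direction against 8.32%. The median difference over members was 0.03 in WT and 0.04 in KO mice, beside 0.0015 and -0.01 over all genes.

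The changes by role were few in each. Of 15 Wnt ligands tested, 2 rose and 1 fell in WT mice, and 3 rose and 2 fell in KO mice. Of 10 Frizzleds, 1 fell in WT mice and none passed in KO mice. Secreted FGFs gave none of 12 in WT and 1 of 11 in KO mice, FGF receptors 1 of 3 and 2 of 3, and BMP ligands 2 of 6 and 1 of 6. None of the 4 FGF homologous factors, the 3 BMP receptors or the 2 genes matched by name passed in either genotype. A different count, of members whose 5 P70 and 5 P21 values did not overlap, gave 13 of 55 in WT mice (23.6%, against 10.8% of all genes) and 9 of 54 in KO mice (16.7%, against 10.9%). In WT mice 7 were higher at P70 (5.2% of all genes) and 6 lower (5.6%). In KO mice 7 were higher (5.4% of all genes) and 2 lower (5.52%). Besides genes past the threshold, these included Wnt10b, Fgf5, Fgf12, Fgf13 and Fzd5 in WT mice, Fgf9 in KO mice and Fgf17 in both.

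**Figure D2:**
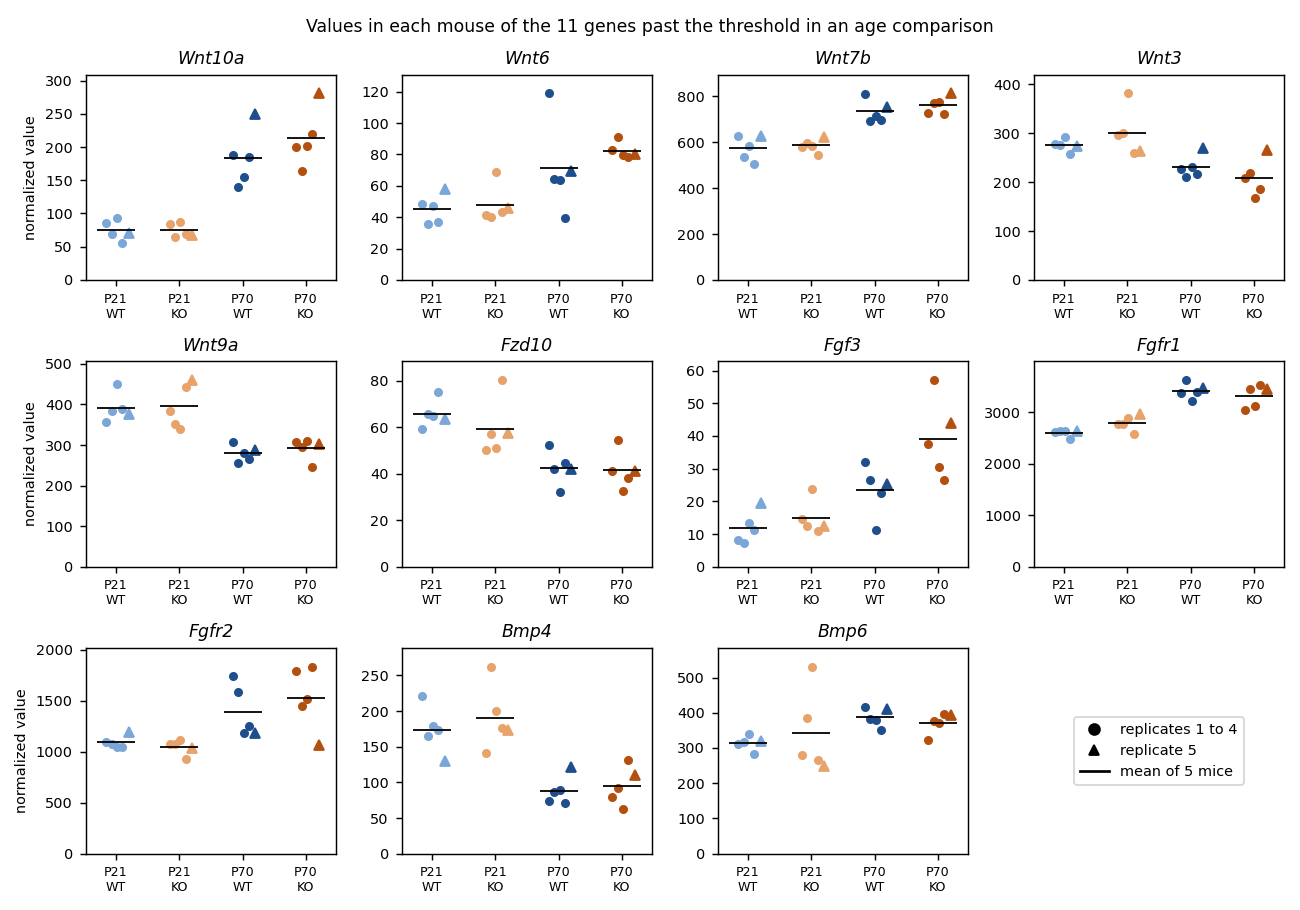
Normalized value of each mouse (vertical axes start at 0) for the 11 genes that passed the threshold in WT or KO mice, by group, with replicate 5 as triangles and a line at the mean of 5 mice. Wnt10a is separated most, with all P70 mice at 140 or above and all P21 mice at 93.5 or below.

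Wnt10a, a canonical ligand best known from teeth, hair and skin, had the largest change of the family in both genotypes. In P21 WT mice it was 85, 68.4, 93.5, 55.8 and 70.1, and in P70 WT mice 188, 140, 155, 185 and 250. The P70 values all lay above the P21 values, by 2.46-fold on the means (log2 fold change 1.28, standard error 0.17, limma adjusted p = 0.000593). In KO mice it was 83.9, 64.6, 87.4, 68.6 and 68.1 at P21 and 200, 164, 201, 220 and 281 at P70, 2.86-fold (1.49, standard error 0.15, adjusted p = 0.000124). Its rise passed without each mouse in turn, in both genotypes.

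Wnt6 lies next to Wnt10a on chromosome 1, on the same strand, with 6.193 kb between them. It was 48.2, 35.9, 47.1, 37.2 and 58.2 in P21 WT mice and 119, 64.5, 63.4, 39.7 and 69.7 in P70 WT mice. Those groups overlapped, and 1 P70 WT mouse was far above the other 4 (0.58, standard error 0.25, adjusted p = 0.166). KO mice had 41.2, 40.2, 69.1, 43.4 and 45.9 at P21 and 82.7, 91, 79.7, 78.5 and 80.2 at P70, with no overlap (0.80, standard error 0.16, adjusted p = 0.00855). The single high P21 KO value was replicate 3. Its choroid plexus list (27076) and meninges list (9642) were also the highest of the P21 KO mice. So were its ependyma, oligodendrocyte precursor, oligodendrocyte, microglia, pituitary and blood lists. Its neuron and endothelium lists were the lowest, and its astrocyte, progenitor and cerebellum lists lay between. Members with under 3 kb of exon lay above the rest of the group in this mouse, by a median of 0.42 on the log2 scale, and Wnt6 has 2192 bp. The part of any of these in its Wnt6 value was not tested. The rise in KO mice passed without each mouse in turn.

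The RefSeq sequences (GRCm38.p6) of 250 bases before the RefSeq start are shown for Wnt6 and for 3 other genes that changed with age, as ligands of each family, of which Wnt6 and Fgf3 rose in KO mice and Wnt9a and Bmp4 fell in both genotypes. Entries were found for 8 of the 11 genes that passed in WT or KO mice and for 42 of the 55 members looked up (the other 2 of the 57 were not), and none was used for Wnt10a, Wnt7b or Fgfr1. Capitals mark matches, on either strand, to the 6-letter TCF/LEF core CTTTGA (reverse TCAAAG), the TATA box TATAAA (reverse TTTATA) or the GC box GGGCGG (reverse CCGCCC), which do not overlap here. Wnt6 is at chr1:74771642-74771891 on the plus strand, Wnt9a at chr11:59306680-59306929 on the plus strand, Bmp4 at chr14:46390670-46390919 on the minus strand and Fgf3 at chr7:144838362-144838611 on the plus strand. The RefSeq start of Fgf3 lies 529 bases inside the gene as GENCODE M21 annotates it, so its stretch and the match in it are within that gene model.
Wnt6: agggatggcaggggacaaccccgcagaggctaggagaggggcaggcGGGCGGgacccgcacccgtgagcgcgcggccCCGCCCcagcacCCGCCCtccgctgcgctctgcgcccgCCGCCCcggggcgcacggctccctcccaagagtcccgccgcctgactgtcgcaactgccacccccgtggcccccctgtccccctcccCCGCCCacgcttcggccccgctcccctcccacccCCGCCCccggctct
Wnt9a: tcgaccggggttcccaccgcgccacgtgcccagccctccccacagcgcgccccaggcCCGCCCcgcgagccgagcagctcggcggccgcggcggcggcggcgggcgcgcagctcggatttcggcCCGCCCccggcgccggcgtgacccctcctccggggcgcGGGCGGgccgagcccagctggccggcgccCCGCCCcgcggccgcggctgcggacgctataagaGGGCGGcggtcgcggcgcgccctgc
Bmp4: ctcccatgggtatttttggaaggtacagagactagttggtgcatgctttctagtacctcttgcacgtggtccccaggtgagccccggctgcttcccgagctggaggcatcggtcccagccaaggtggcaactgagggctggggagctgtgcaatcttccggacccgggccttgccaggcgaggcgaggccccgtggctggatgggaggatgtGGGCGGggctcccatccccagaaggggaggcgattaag
Fgf3: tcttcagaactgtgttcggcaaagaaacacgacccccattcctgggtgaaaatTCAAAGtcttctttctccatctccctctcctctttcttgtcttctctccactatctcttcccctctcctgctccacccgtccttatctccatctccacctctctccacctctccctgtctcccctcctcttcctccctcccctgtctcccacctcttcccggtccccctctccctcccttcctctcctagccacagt
Wnt6 (79.6% G or C) held 6 GC boxes, Wnt9a (84.4%) 5 and Bmp4 (63.2%) 1, the last 38 bases before the start. Fgf3 (55.2%) held none, and had the only TCF/LEF core of the 4, 197 bases before its start. GC boxes were found in 66.7% of the 54 promoter entries of members and in 32.7% of all 32851 promoters of this length, TCF/LEF cores in 9.26% and 13.8%, and TATA boxes in 5.56% and 12.4%. A match describes the letters only.

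Wnt7b rose as well, by less than Wnt10a. It was 626, 535, 584, 506 and 627 in P21 WT mice and 810, 694, 714, 697 and 752 in P70 WT mice, with no overlap (0.35, standard error 0.08, adjusted p = 0.0186). In KO mice it was 579, 597, 582, 546 and 623 at P21 and 729, 770, 773, 723 and 813 at P70, again apart (0.38, standard error 0.07, adjusted p = 0.00451). The WT call passed in 7 of 10 fits without a mouse (adjusted p up to 0.0601) and the KO call in 10 of 10. Its close relative Wnt7a gave differences of -0.10 in WT and 0.07 in KO mice, with adjusted p of 0.648 and 0.661.

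Wnt9a, whose family members act on β-catenin, fell. It was 357, 383, 451, 388 and 377 in P21 WT mice and 308, 256, 281, 266 and 288 in P70 WT mice, and 383, 353, 340, 442 and 460 in P21 KO against 307, 295, 310, 246 and 302 in P70 KO mice. The ages did not overlap in either genotype (-0.48, standard error 0.09, adjusted p = 0.00493 in WT mice and -0.43, standard error 0.11, adjusted p = 0.0279 in KO mice). The WT call held without each mouse in turn and the KO call in 5 of 10 such fits.

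Wnt3, a ligand of the developing forebrain and of cerebellar circuits, lies 24.3 kb from Wnt9b on chromosome 11, on the opposite strand. It was 278, 277, 292, 258 and 274 in P21 WT and 226, 211, 232, 216 and 269 in P70 WT mice (-0.26, standard error 0.09, adjusted p = 0.0928). Among KO mice the values were 296, 300, 382, 259 and 263 at P21 and 208, 218, 167, 186 and 266 at P70 (-0.52, standard error 0.14, adjusted p = 0.0387). Replicate 5 was the highest mouse in both P70 groups. The KO call passed in 1 of 10 fits that left out a mouse, the fit without P70 KO replicate 5 (-0.61, adjusted p = 0.00365), and without P70 WT replicate 5 the WT difference was -0.32 (adjusted p = 0.0147). Wnt9b gave -0.43 (adjusted p = 0.266) and -0.51 (adjusted p = 0.104).

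Fzd10, a Frizzled with a narrow range of expression in the embryonic brain, was the receptor of the Wnt family that fell in WT mice. It was 59.2, 65.5, 64.7, 75.2 and 63.7 at P21 and 52.4, 42.2, 32.1, 44.6 and 42 at P70, with no overlap (-0.62, standard error 0.15, adjusted p = 0.023). The call was lost without P21 WT replicate 2 or replicate 4 (adjusted p up to 0.0728). In KO mice it was 50.4, 56.9, 51.2, 80.3 and 57.5 at P21 and 41.3, 54.6, 32.7, 38.1 and 41 at P70, with overlap (-0.50, standard error 0.18, adjusted p = 0.109). The difference between genotypes in this change was 0.12 (standard error 0.22, limma adjusted p = 1).

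Fgf3, a ligand known from the induction of the inner ear, was low throughout. It was 8.06, 7.35, 13.5, 11.4 and 19.4 in P21 WT and 31.9, 26.6, 11.2, 22.6 and 25.3 in P70 WT mice, with overlap (0.93, standard error 0.33, adjusted p = 0.0959). In the KO groups it was 14.7, 12.6, 23.9, 11 and 12.5 at P21 and 37.6, 57.1, 30.4, 26.6 and 43.9 at P70, with no overlap, and it rose 2.62-fold (1.33, standard error 0.26, adjusted p = 0.00834). These values are near the filter of 10, where a difference of a few reads counts, and with a filter of 50 it was not tested.

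Among receptors, Fgfr1, which carries FGF signals in neurons and glia, rose in both genotypes. It was 2615, 2645, 2638, 2476 and 2641 in P21 WT mice and 3369, 3628, 3230, 3388 and 3465 in P70 WT mice, 1.31-fold (0.39, standard error 0.06, adjusted p = 0.000856). In KO mice it was 2771, 2779, 2889, 2581 and 2971 against 3056, 3458, 3115, 3542 and 3464, 1.19-fold and without overlap (0.25, standard error 0.07, adjusted p = 0.0374). The WT rise passed in all 10 fits without a mouse and the KO rise in 2 of 10.

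Fgfr2, which in the brain serves oligodendrocytes and astrocytes, passed in KO mice. It was 1071, 1077, 1117, 924 and 1033 at P21 and 1794, 1447, 1516, 1830 and 1065 at P70 (0.53, standard error 0.13, adjusted p = 0.0274). P70 KO replicate 5 lay among the P21 values and the other 4 above them, and without it the difference was 0.65 with an adjusted p of 0.00015. The KO call passed in 3 of 10 fits without a mouse (adjusted p up to 0.0776). In WT mice it was 1096, 1074, 1050, 1042 and 1188 at P21 and 1741, 1584, 1182, 1250 and 1186 at P70, with overlap (0.33, standard error 0.11, adjusted p = 0.0734). Fgfr3 gave -0.10 and -0.12, with adjusted p of 0.341 and 0.342.

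Bmp4, a ligand that steers oligodendrocyte precursors away from maturation, showed the largest fall of the family. It was 221, 165, 179, 173 and 130 in P21 WT mice and 74.1, 86.9, 89.4, 71.1 and 121 in P70 WT mice, to 0.51 of the younger mean (-0.97, standard error 0.17, adjusted p = 0.00287). Values of KO mice were 141, 262, 200, 176 and 173 at P21 and 79.6, 92.4, 62.3, 132 and 110 at P70, to 0.50 of the younger mean (-1.01, standard error 0.21, adjusted p = 0.0102). No P70 value reached a P21 value in either genotype, and the fall passed without each mouse in turn. A list of 7 oligodendrocyte precursor genes moved with it: all 7 were detected, and their summed value was 13422 to 17666 in P21 mice and 8253 to 9931 in P70 mice. The 9-gene oligodendrocyte list was 385069 to 565398 and 149067 to 196004. The part of either list in the Bmp4 result was not tested.

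Bmp6, a ligand that controls iron handling in the liver and is also made in brain, rose in WT mice. It was 312, 316, 339, 282 and 320 at P21 and 416, 383, 379, 351 and 412 at P70, with no overlap (0.31, standard error 0.08, adjusted p = 0.0363). That call passed in only 3 of 10 fits without a mouse. In KO mice it was 280, 386, 530, 266 and 249 at P21 and 324, 376, 370, 396 and 395 at P70 (0.18, standard error 0.18, adjusted p = 0.626). The 2 highest P21 KO mice, replicates 2 and 3, had the highest sums of the 12-gene meninges and fibroblast list in that group (8141 and 9642, against 5405 to 6620 in the other 3). They were also highest in that group on the choroid plexus list (23810 and 27076, against 14432 to 18306) and the oligodendrocyte list (457985 and 565398, against 385069 to 442322). The same held for the ependyma list (712 and 950, against 624 to 690) and the pituitary list (173 and 1516, against 127 to 155). On the remaining lists these mice were not the 2 highest. The part of any of these lists in the Bmp6 values was not tested.

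**Figure D3:**
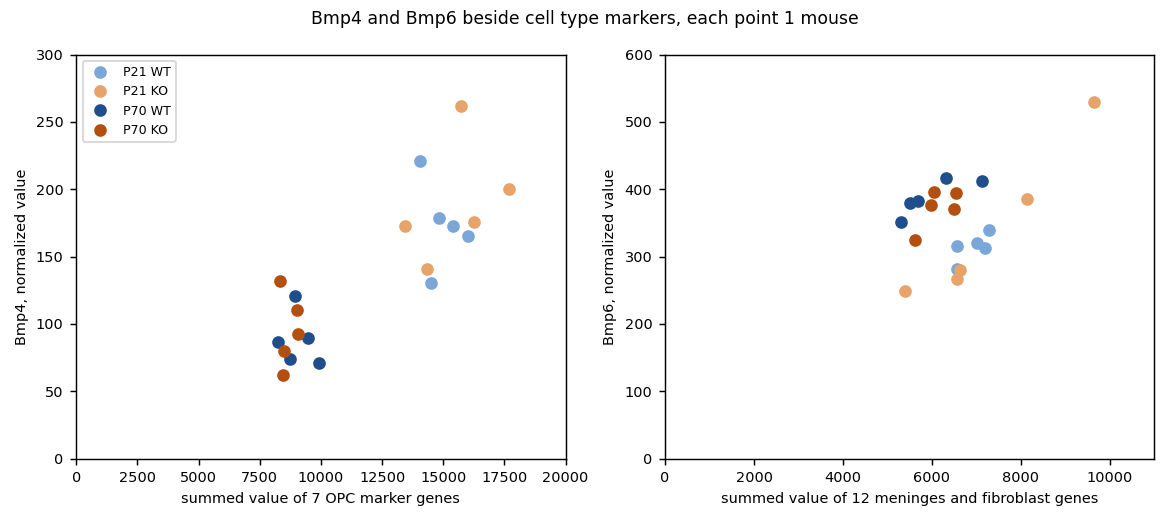
Normalized value of Bmp4 against the summed value of 7 oligodendrocyte precursor genes (left) and of Bmp6 against the summed value of 12 meninges and fibroblast genes (right), each point 1 mouse coloured by group. For Bmp4 the ages separate on the list axis, and on the Bmp4 axis within each genotype (P70 KO reaches 132 and P21 WT goes down to 130), and for Bmp6 the P21 KO mouse with 530 is also the one with the highest list sum, 9642.

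Fzd3, Bmpr2 and other genes with long transcripts turned on 2 mice. Bmpr2 was 4431, 4203, 3701, 4513 and 4347 in P21 WT mice and 5120, 5724, 5554, 5643 and 2828 in P70 WT mice. The KO values were 4209, 3974, 3450, 4561 and 4507 at P21 and 5831, 5629, 5221, 5201 and 2186 at P70. In both genotypes 4 of the 5 P70 mice lay above all P21 mice and replicate 5 lay below them, and the differences were 0.19 (standard error 0.16, adjusted p = 0.519) and 0.14 (standard error 0.23, adjusted p = 0.769). Fzd3 had the same shape, with P70 values of 3255, 3381, 3319, 3581 and 1939 in WT and 3687, 3415, 3170, 3318 and 1606 in KO mice, against P21 values of 2356 to 3127 and 2412 to 3046.

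In those 2 mice, 14 members with over 6 kb of exon had a median log2 deviation from their group of -0.28 (WT) and -0.57 (KO), and 13 members under 3 kb one of 0.30 and 0.32. Across 17623 genes the rank correlation of a mouse's deviation with exon length was -0.36 and -0.34 in them, and P21 replicate 3 of both genotypes had -0.37 and -0.31, while the other 16 mice were between -0.10 and 0.29. Without P70 WT replicate 5, 7 members rose and 5 fell in WT mice, adding Bmpr2, Fgfr2, Fzd3, Fgf13 and Wnt3 to those called with it. That is to be read against 8.89% of all genes rising and 8.11% falling in the same fit. Without P70 KO replicate 5, 12 rose and 5 fell in KO mice (10.6% and 10.7% of all genes), adding Bmp1, Bmpr1a, Bmpr1b, Bmpr2, Fgf5, Fgf10, Fzd3 and Wnt9b. Without replicate 5 of every group the counts were 8 and 5 in WT mice (8% and 6.99% of all genes) and 11 and 5 in KO mice (9.67% and 9.69%). The spacing of low values put these 2 libraries at about 28000000 and 28400000 reads, against 23400000 to 24600000 in the other P70 libraries. That estimate is weak for them. Only 13.4% and 14.3% of their low values were whole multiples of 1 read, against 23.1% to 45.4% in the other P70 libraries.

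**Figure D4:**
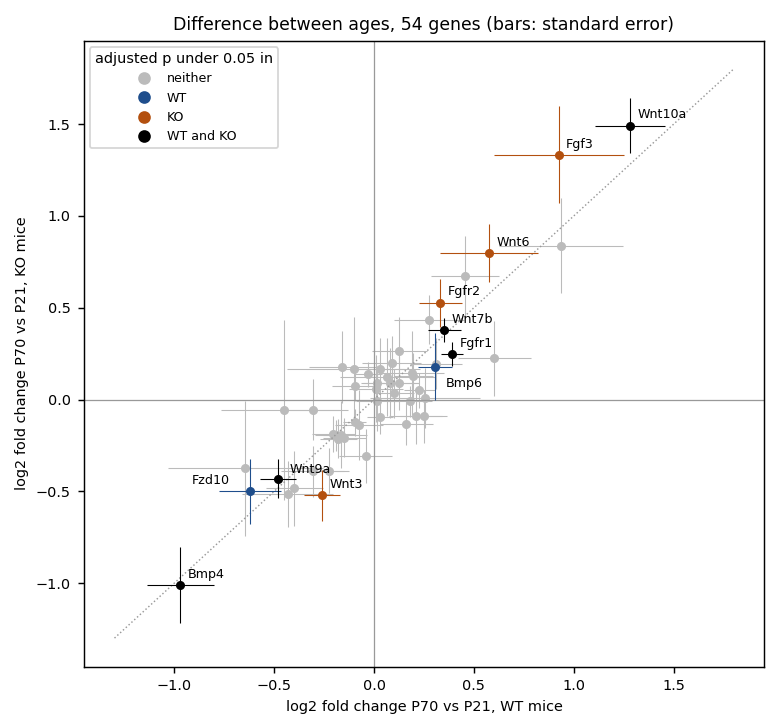
Log2 fold change between P70 and P21 in WT mice (horizontal) and KO mice (vertical) of the 54 genes tested in both, with bars of 1 standard error, a dotted line of equality and colours for the genotype in which the adjusted p was under 0.05. Bmp4 lies at the lower left at -0.97 and -1.01, and Wnt10a at the upper right at 1.28 and 1.49.

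The WT and KO comparisons of age were made on different mice. The 5 members past the threshold in both were Wnt10a, Wnt7b, Fgfr1, Bmp4 and Wnt9a, each in the same direction, of 11 past it in either. Among all genes 958 of 2139 passed in both, all 958 in the same direction. A common sign was seen in 44 of 54 members (81.5%), beside 80% of 17437 genes. Pearson's r over genes was 0.90 for members and 0.72 for all genes, given as a description, since genes of 1 mouse share its library and are not independent. The age by genotype interaction, fitted over all 20 mice, had no member of 55 past the adjusted threshold and none at an unadjusted p under 0.05 (1.68% of all genes, 0.652% with a positive and 1.03% with a negative difference), with differences from -0.38 (Wnt10b) to 0.41 (Fgf3). Genes past the threshold in only 1 genotype, such as Wnt6, Fgf3, Fgfr2 or Bmp6, were therefore not shown to differ between genotypes in their change with age.

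KO and WT mice were compared at each age, the question of the study. No member passed the adjusted threshold by limma at P21 (54 tested) or P70 (53 tested), and neither did any other gene. The study itself, using DESeq2 and a fold-change cutoff, reports a limited number of genes that differ between genotypes at each age. The absence of calls here therefore holds for limma on log2 of the normalized values. Differences of members ran from -0.40 to 0.33 at P21 and from -0.24 to 0.73 at P70 on the log2 scale. Without adjustment, 4 members at P21 (7.41%, against 2.44% of all genes) and 1 at P70 (1.89%, against 1.13%) had a p under 0.05. At P21 3 had higher values in KO mice (1.49% of all genes) and 1 lower (0.948%), and at P70 1 had higher values (0.59%) and 0 lower (0.539%). The median size of the difference, without its sign, was 0.07 over members at both ages, beside 0.05 and 0.06 over all genes.

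**Figure D5:**
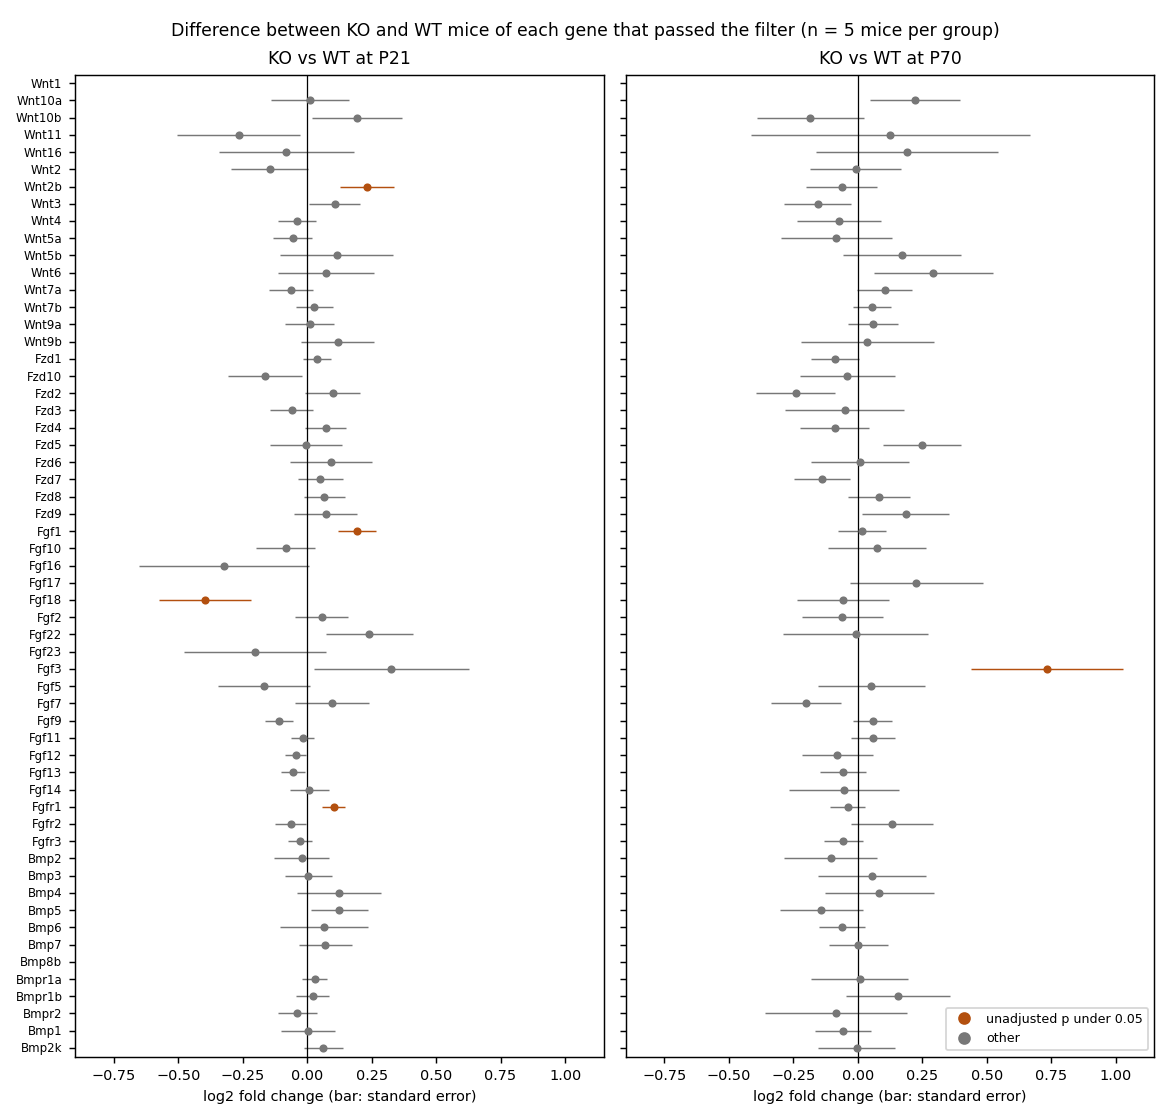
Log2 fold change of KO relative to WT mice at P21 (left, 54 genes) and P70 (right, 53 genes), with bars of 1 standard error and the genes with an unadjusted p under 0.05 in orange. Most points lie within 0.25 of 0, and Fgf3 at P70 is the farthest, at 0.73.

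Of the 4 at P21, Fgf1 was 1874, 2056, 1862, 1943 and 2398 in WT and 2318, 2407, 2537, 2115 and 2180 in KO mice. Except for WT replicate 5 all KO values were above all WT values (0.19, standard error 0.07, limma p = 0.0206 unadjusted and 1 adjusted, exact permutation p = 0.0556). Wnt2b, a ligand of the choroid plexus border in the embryo, was 138, 125, 118, 139 and 104 in WT and 145, 147, 132, 167 and 140 in KO mice (0.23, standard error 0.11, unadjusted limma p = 0.0463, exact permutation p = 0.0397). Fgfr1 was 2603 ± 72 in WT and 2798 ± 147 in KO mice (SD, n = 5; 0.10, standard error 0.05, unadjusted limma p = 0.0422, exact permutation p = 0.0397). Fgf18, a ligand of Fgfr2 and Fgfr3, was the one with lower KO values, at 45.2, 36.1, 45.6, 48.5 and 47.7 in WT and 38.1, 35.9, 44.7, 25.1 and 27.4 in KO mice (-0.40, standard error 0.18, unadjusted limma p = 0.0444, exact permutation p = 0.0397). The groups overlapped for all 4, and each had an adjusted p of 1. Choroid plexus and ependyma genes had higher values in KO mice, with 10 of 10 and 8 of 8 positive differences at both ages (medians 0.21 and 0.16 at P21, 0.18 and 0.18 at P70), though none passed the adjusted threshold. Over all genes 9239 of 17610 differences were positive at P21 and 8427 of 17613 at P70. The meninges and fibroblast list leaned the same way (9 of 12 at P21, 10 of 12 at P70). So did the pituitary list (4 of 5 at both ages), while the progenitor list leaned the other way (2 of 6 at both ages). Other lists leaned toward KO mice at 1 age, such as oligodendrocytes (8 of 9 at P21, 2 of 9 at P70) and microglia (3 of 7 and 7 of 7). Genes of 1 list share the same mice, so their signs are not independent. The choroid plexus sum was 12680 to 18681 in P21 WT and 14432 to 27076 in P21 KO mice, the ependyma sum 551 to 733 and 624 to 950, and no gene of the choroid plexus list was at 0 in any mouse. Their part in the Wnt2b values and the others was not tested. At P70 the same 4 members gave 0.02, -0.06, -0.04 and -0.06.

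Fgf9, a ligand made by neurons, was the member whose P21 groups did not overlap (1 of 54, or 1.85%, against 0.46% of all genes), and it was picked out after its values were seen. It was 485 to 547 in WT and 466 to 481 in KO mice, with medians of 521 and 480 (-0.11, standard error 0.06, adjusted p = 1, exact two-sided permutation p = 0.00794). At P70 Fgf9 was 482 to 524 in WT and 493 to 576 in KO mice. At P70 the single gene with an unadjusted p under 0.05 was Fgf3, whose values are given above, at 1.66-fold in KO mice (0.73, standard error 0.29, limma p = 0.0281 unadjusted and 1 adjusted, exact permutation p = 0.0317), with overlap. Leaving out any 1 mouse gave no member past the adjusted threshold at either age.

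Other genes of the same pathways, 117 that the names did not select, were taken from lists of coreceptors, inhibitors, transducers and targets. In WT mice 10 of 112 tested rose with age and 7 fell (4.62% and 4.7% of all genes), and in KO mice 8 of 113 rose and 8 fell (3.78% and 4.53%), while none passed between KO and WT mice. Secreted and membrane inhibitors of Wnt signalling moved in both directions, with 3 of 14 higher and 2 lower in WT mice. Apcdd1, which blocks Wnt and BMP signalling at the membrane, fell most, from 1147 ± 65.4 to 541 ± 119 in WT (-1.11, adjusted p = 0.000151) and from 1167 ± 143 to 556 ± 72.9 in KO mice (-1.07, adjusted p = 0.000156). Kremen1, a partner of the Dickkopf proteins that falls outside the rule for named genes, was the other inhibitor that rose in WT mice, by 0.39. Wif1, which binds Wnt ligands, gave -0.60 (adjusted p = 0.0328) and -0.42 (adjusted p = 0.199). Dkk3, a Dickkopf relative, rose from 3865 ± 361 to 5717 ± 268 in WT (0.57, adjusted p = 0.000337) and to 6038 ± 460 from 3898 ± 182 in KO mice (0.63, adjusted p = 0.000168), and Dkkl1 rose by 0.84 and 0.77.

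Of the amplifiers, Rspo1, which raises Frizzled levels at the surface, rose by 0.69 (adjusted p = 0.0129) and 0.95 (adjusted p = 0.0011), and the R-spondin receptor Lgr6 gave -0.61 (adjusted p = 0.0278) in WT mice and -0.07 (adjusted p = 0.819) in KO mice. Inside the cell, Ctnnb1, which encodes β-catenin, fell by 0.36 and 0.28, and Apc, a scaffold of the complex that destroys it, fell by 0.92 and 0.89. Axin1 and Pygo1, a scaffold and a nuclear coactivator, rose by 0.31 and 0.29 in WT mice, and in KO mice their differences were 0.24 and 0.20 with adjusted p of 0.104 and 0.37. Of 11 Wnt target genes, Apcdd1 was the one that passed in either genotype. Axin2, a common readout of β-catenin that is singled out here after its values were seen, gave 0.12 (adjusted p = 0.37) and 0.15 (adjusted p = 0.392).

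Of 25 genes on the FGF lists, 4 rose and none fell in WT mice (4.62% and 4.7% of all genes), and 4 rose and 1 fell in KO mice (3.78% and 4.53%). Spry4 and Etv5, genes that FGF signalling induces, rose by 0.78 and 0.37 in WT (adjusted p = 0.00341 and 0.0102) and by 0.63 and 0.45 in KO mice (adjusted p = 0.00108 and 0.00389). Flrt1, a membrane partner of FGF receptors, rose by 0.53 and 0.58. Kl, a coreceptor for endocrine FGFs that is also on the choroid plexus list, gave 0.69 (adjusted p = 0.00877) in WT and 0.57 (adjusted p = 0.0623) in KO mice. The choroid plexus sum was 12680 to 18681 in P21 WT and 12768 to 27417 in P70 WT mice, and its part in the Kl result was not tested.

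Of the BMP lists, 2 of 35 genes fell in WT mice and 2 of 36 in KO mice, a share near that of all genes (4.7% and 4.53%), and none rose. Gdf10, a BMP-related ligand of cerebellar and other astroglia, fell from 1407 to 1041 in WT (-0.44, adjusted p = 0.00751) and from 1518 to 942 in KO mice (-0.69, adjusted p = 0.000558). The other in KO mice was Kcp, a secreted BMP modulator named after its value was seen, at -1.32 (adjusted p = 0.00707). Id2, a target of BMP receptors, gave -0.23 (adjusted p = 0.0331) in WT and -0.27 (adjusted p = 0.0588) in KO mice. Over all 112 pathway genes the median difference was 0.06 in WT mice, beside 0.03 for the 55 members.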

How the data were processed

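Whole-brain RNA (RIN above 7) of 20 mice was sequenced as 100 bp pairs. Per the labels and the submitters' processing notes, the authors quantified transcripts with Salmon 1.1.0 against GRCm38, summed them to genes and normalized the counts by DESeq2 1.26.0 size factors in R 3.6.2. The deposited signal is thus a normalized count, of which too few low values were whole multiples of 1 read (tolerance 0.05) for a count test. Values were fitted as log2(value + 1) with limma 3.58.1 in R 4.3.3, with a mean trend, for genes with a mean of at least 10 in the mice fitted, and adjusted over all genes by the Benjamini-Hochberg method. Each comparison used its own mice, and the interaction all 20. Exact permutation tests were two-sided. Lengths were unions of GENCODE M21 exons. The labels give 5 mice a group and no litter or day. The genes named were, by role, up to 4 lower and 4 higher with the smallest adjusted p in the WT age comparison, members past the threshold in 1 genotype only or with an unadjusted p under 0.05 between genotypes or in the interaction, the highest per kb of each role, members with a mean under 10 (by name), and up to 2 lower and 2 higher of each pathway list. Members and lists were chosen with earlier results of these data known. The procedure was tested on simulated data. Alternatives were other pseudocounts, filters, scalings, models and leaving out mice.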

Additional observations from a re-analysis of the deposited data

Results flagged for a closer look

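Of 80 sets of 5 mice examined, 10 had a mouse that stood apart from the other 4 by Dixon's test (critical value 0.71). For independent sets chance gives about 5%. These sets share the same 20 mice and their genes were named partly for their values, so that rate is no yardstick here. In Fzd3 the lowest mice were P70 WT replicate 5 at 1939, P70 KO replicate 5 at 1606 and P21 WT replicate 3 at 2356. In Bmpr2 they were P70 WT replicate 5 at 2828 and P70 KO replicate 5 at 2186. Those 3 libraries also had the negative rank correlations with exon length given above. Wnt6 was highest in P21 KO replicate 3, at 69.1 against 45.9 in the next mouse. Fzd10 was highest in P21 KO replicate 4, at 80.3 against 57.5. Wnt9a was lowest in P70 KO replicate 4, at 246 against 295. Fgfr1 was lowest in P21 WT replicate 4, at 2476, and Fgf18 in P21 WT replicate 2, at 36.1.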

How the results depend on the processing

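Another pseudocount (0.5), equal sums and recomputed size factors changed no direction and no side of the threshold among the values compared. A filter of 50 changed none among the values it still tested. It left Fgf3 untested, so 8 members passed with age in KO mice, against 9. In WT mice, 4 members rose and 3 fell with age. Without replicate 5 of each group these counts were 8 and 5 (8% and 6.99% of all genes). With an unadjusted limma p under 0.05 they were 12 and 8 of 55 members (21.8% and 14.5%, against 12.6% and 11.9% of all genes). At an adjusted p under 0.01 the first was 2. A gene length correction, chosen after seeing the data, gave 5 that fell. In KO mice 6 rose and 3 fell, and without replicate 5 of each group 11 and 5 (9.67% and 9.69% of all genes). The count that fell was 5 with all 20 mice in a single fit, 9 of 54 with an unadjusted p (16.7%, against 11.6% of all genes) and 0 at 0.01. Between genotypes the counts of 0 became 3 higher and 1 lower at P21 and 1 higher at P70 without adjustment (1.49%, 0.948% and 0.59% of all genes). Leaving out 1 mouse gave 2 to 7 that rose and 2 to 5 that fell in WT mice, 4 to 12 and 1 to 5 in KO mice, and 0 to 0 in KO against WT and in the interaction. The Katnal2 difference was then -0.30 to -0.23 at P21 and -0.27 to -0.15 at P70. Lgr6 in KO mice (-0.07) was then -0.134 to 0.0028, the last without P70 KO replicate 5 (adjusted p = 0.991). By longest transcript the highest Wnt level per kb was 216.

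Same-numbered mice were treated as unpaired, since the labels do not say whether a shared number links them. Correlations of their deviations between ages were -0.10 to 0.16 in WT and -0.12 to 0.16 in KO mice. Between genotypes they were -0.0091 to 0.26 at P21, with replicate 3 the highest. At P70 pair 5 had 0.705 and the others 0.075 to 0.175. With a replicate block 3 rose and 2 fell in WT mice, and 4 rose and 1 fell in KO mice, losing Bmp6 and Fzd10 in the first and Fgfr1, Fgfr2, Wnt3 and Wnt9a in the second. The cause of these shifts was not tested.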
